A study of Mus musculus with 9 samples.

Results

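The genes described here encode the proteins of the cytosolic ribosome, and their response to castration was measured in mouse bone and bone marrow. They were chosen by symbol: Rpl or Rps with a number and an optional letter, together with Rplp0, Rplp1, Rplp2 and Rpsa, without the Rps6k kinases, pseudogenes and the mitochondrial ribosome. Of 81 such genes in the RefSeq annotation, 45 had an array feature annotated to that gene alone, and 44 of these had values on at least 2 arrays of every group. These 44 genes, 30 of the large and 14 of the small subunit, were set among 7170 measured items, which were 4775 genes and 2395 features without a single gene name. All 44 had a value on each of the 9 arrays, so no member passed on the strength of 1 group. Rps15 was just below the minimum, with a value on only 1 young marrow array, and the members just inside it do not differ from the others, since all were complete. The other 36 genes, Rplp2 among them, had no feature annotated to them alone and are not analysed here.

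Each array carried RNA of a castrated C57BL/6 mouse in 1 dye and RNA of its sham-operated partner in the other, so the values are ratios within a mouse pair and every group is a comparison of castrated with sham. There were 3 groups of 3 pairs: old marrow from mice of 59 weeks, young marrow from mice of 17 weeks, and young bone from mice of 17 weeks. All castrated mice had been operated on at 7 weeks of age, and the labels give no genotype beyond the strain. The labels call the old specimens bone marrow, but the design text describes separating marrow from bone only for the young mice. RNA of castrated mice carried Cy5 on 6 arrays and Cy3 on the other 3, namely old marrow 2, young marrow 2 and young bone 3, which are called the swapped arrays.

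Ribosomal proteins assemble with ribosomal RNA in the nucleolus into a large and a small subunit, and they are needed in fixed proportions to each other. Their mRNAs are among the most abundant in growing cells and commonly begin with a stretch of pyrimidines, the terminal oligopyrimidine tract, through which the growth kinase complex mTOR controls their translation. In bone marrow they are known from inherited anaemias in which loss of a copy of a ribosomal protein gene, Rps24 or Rpl35a among others in humans, impairs red cell formation.

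The start sites of 6 genes with high ratios in young bone or young marrow show how far this tract is visible in the annotation. Of the 44 genes, 35 had a start-site sequence in RefSeq (GRCm38.p6), and the lines give 30 bases before and 15 bases from the annotated start, read 5′ to 3′ on the gene's strand. Capitals mark a C followed by 4 or more C or T that begins within 5 bases of that start, and a line without capitals has no such run. The 6 genes are examples and not the highest ones. Rpl13, among the highest in young bone, and Rps4x, among the highest in young marrow, are not shown and had no such run. For Rps24 the first of its listed starts is shown. Rps24 lies at chr14:24490648-24490692 (plus strand), Rpl39 at chrX:37085208-37085252 (minus), Rpl12 at chr2:32961682-32961726 (plus), Rpl26 at chr11:68901536-68901580 (plus), Rpl41 at chr10:128549154-128549198 (minus), and Rplp0 at chr5:115559437-115559481 (plus).
Rps24: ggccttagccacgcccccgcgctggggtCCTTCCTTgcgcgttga
Rpl39: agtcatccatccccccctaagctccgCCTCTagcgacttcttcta
Rpl12: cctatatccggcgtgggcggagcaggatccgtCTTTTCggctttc
Rpl26: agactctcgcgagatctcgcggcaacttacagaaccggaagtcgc
Rpl41: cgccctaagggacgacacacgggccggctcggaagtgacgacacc
Rplp0: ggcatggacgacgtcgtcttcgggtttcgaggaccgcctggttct
Such a run was found for 16 of the 35 genes (45.7%), against 21.2% of the 27025 genes in the table, counting a gene if any of its listed starts had one. The motif CCGGAAG, on either strand of the 300-base window, was likewise present for 16 of the 35 genes (45.7%) and for 9.93% of all genes. That motif was picked after the windows had been read, and Rpl26 shows it near the end of its line. Both are descriptions of annotated letters, and a window without a run says only that these letters are not there.

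No ribosomal protein gene passed an adjusted p of 0.05 in any group or in any difference between groups, with limma and Benjamini-Hochberg adjustment over all 7170 items. For the average of the 3 groups 0 of 44 passed, where 3.91% of all items did. In old marrow 0 of 44 passed against 0.851% of all items, in young marrow 0 against 0.739%, and in young bone 0 against 0.321%. For old marrow minus young marrow the background was 0.0%, for old marrow minus young bone 0.0139%, and for young marrow minus young bone 0.0%. At an unadjusted limma p under 0.05 there were 4 members in the average (9.09%, against 16.0% of all items) and 1 in old marrow (2.27%, against 18.5%). Young marrow had 3 (6.82%, against 10.3%) and young bone 3 (6.82%, against 8.52%). In the average and in each group the member share was thus below that of all items. The differences held 3 members for old minus young marrow (6.82%, against 14.7%) and 4 for old marrow minus young bone (9.09%, against 6.82%). For young marrow minus young bone there were 2 (4.55%, against 4.67%). The smallest adjusted p of any member was 0.219, for Rpl21 in the average. All values below are therefore given as measured log2 ratios of castrated over sham, with 0 meaning equal levels.

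The direction of the deposited ratios was taken as castrated over sham on every array, which is likely from the labels but not stated. If the values are instead Cy5 over Cy3, the sign of the swapped arrays turns, and the 6 other arrays stay as they are. On those 6 arrays both readings give the same values. Under castrated over sham, markers of B lymphocytes were called in the average for 5 of 5 measured genes, all higher, with a median effect of 0.95, and 6 of 6 granulocyte markers were called lower, with a median effect of -0.55. Read as Cy5 over Cy3, 0 of the 7170 items were called in the average. Across items, which are not independent, the swapped array correlated with the mean of the other 2 arrays of its group at r = 0.599 in old marrow (n = 6792), 0.491 in young marrow (n = 6355) and -0.061 in young bone (n = 7058). The SD over items was largest on old marrow 1. These are ratios of whole tissue, so that more cells of a type and more RNA per cell cannot be told apart, and without levels the labelled tissue could not be checked against its markers.

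In young marrow the ribosomal protein genes lay above 0 as a body, by a small amount. The mean ratio was above 0 for 41 of the 44 genes (93.2%), against 47.4% of all items, and this held for 27 of 30 large subunit genes and for 14 of 14 small subunit genes. The median over the members was 0.03 on young marrow 1, 0.145 on young marrow 2 and 0.17 on young marrow 3, whereas the median of all items on these arrays lay between -0.01 and 0.005. Members above 0 numbered 26, 40 and 39 on the 3 arrays, so that young marrow 1 was close to the all-item share of 50.1% and the other 2 arrays were far above theirs. A ratio above 0 on all 3 arrays was found for 22 members (50.0%), against a background of 20.2%, and 1 member, Rpl27, was below 0 on all 3, against 17.9%. Without the swapped array, where both readings agree by construction, the mean was above 0 for 38 of 44 genes, against 45.7% of all items, and the member median was 0.09. If the swapped array is turned round, 16 of 44 fitted effects lie above 0 (36.4%, against 48.1% of all items) and 0 of 44 genes keep 1 sign on all 3 arrays, against 13.2% of all items.

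**Figure D1:**
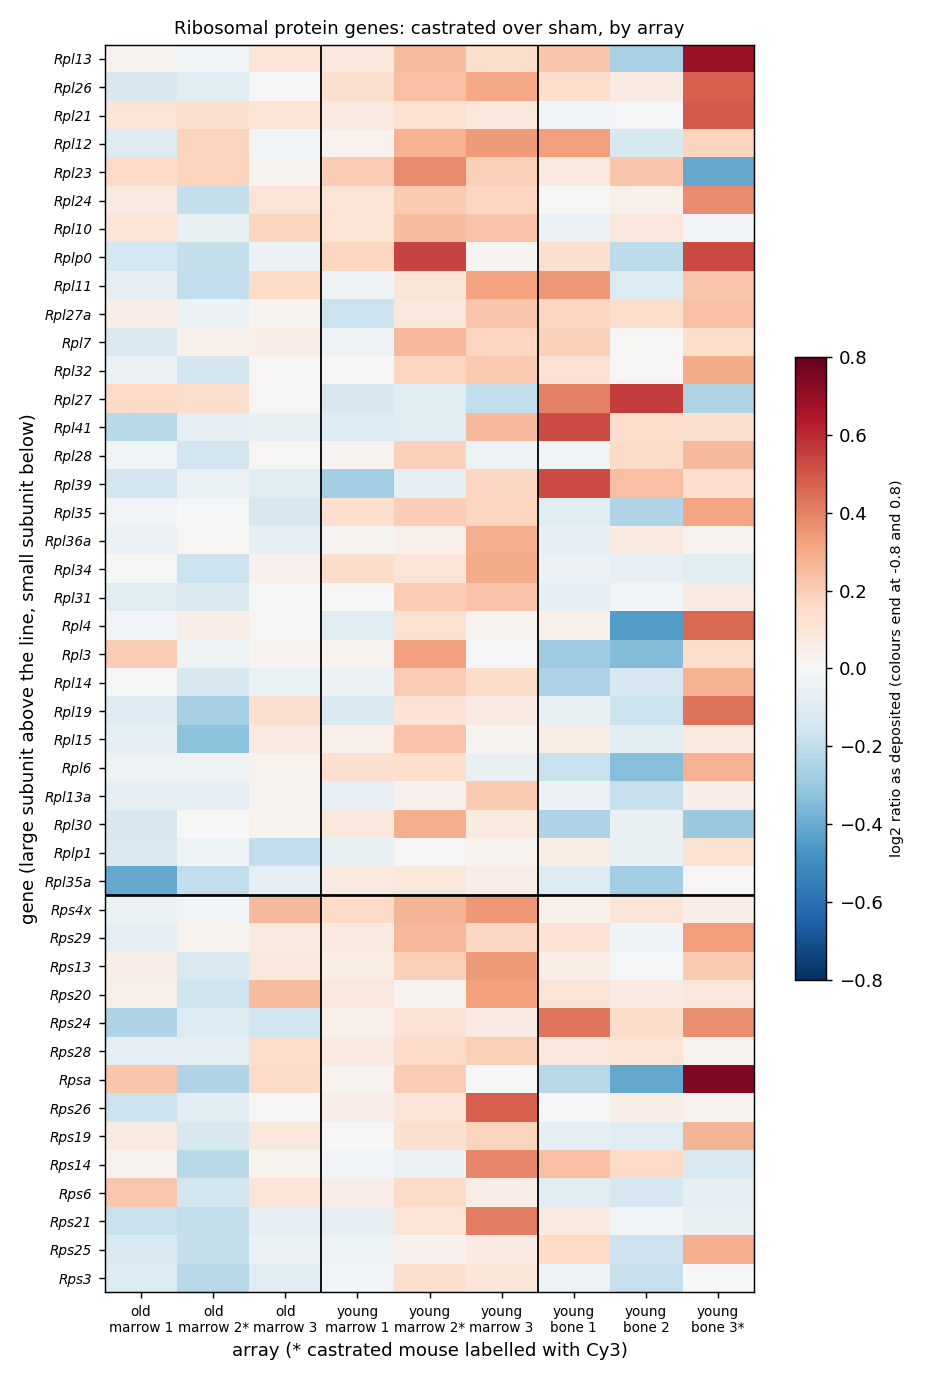
Log2 ratio of castrated over sham, as deposited, for each of the 44 ribosomal protein genes (lines of the map) on each of the 9 arrays, large subunit above the black line and small subunit below it, each ordered by the mean over arrays; an asterisk marks a swapped array. Young marrow 2 and 3 are red for 40 and 39 of the 44 genes, while young bone 3 carries both the deepest red (Rpsa, 0.74) and blue cells (Rpl23, -0.41).

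In old marrow the 3 arrays went different ways. The mean of the same genes was above 0 for 16 of 44 genes (36.4%), against 41.2% of all items. The member median was -0.05 on old marrow 1, -0.095 on old marrow 2 and 0.02 on old marrow 3, and the all-item medians were -0.11, -0.01 and -0.01. Genes above 0 made up 36.4% of the members on old marrow 1, against 38.0% of all items, 18.2% on old marrow 2, against 47.7%, and 65.9% on old marrow 3, against 46.8%. Old marrow 1 was thus near its all-item share, old marrow 2 below it and old marrow 3 above it. All 3 arrays were above 0 for 3 members (6.82%), against 16.7% of all items, and below 0 for 11 members (25.0%), against 24.6%. As deposited 14 of 44 genes thus kept 1 sign, against 41.3% of all items. With the swapped array turned, 14 of 44 did, against 14.2%.

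In young bone the members spread most widely. The SD across the 44 genes was 0.193, 0.191 and 0.241 on the 3 young bone arrays, and 0.098 to 0.142 on the 6 marrow arrays. Member medians were 0.05, -0.025 and 0.14. Genes above 0 made up 54.5% of the members on young bone 1, against 50.2% of all items, 40.9% on young bone 2, against 45.7%, and 79.5% on young bone 3, against 45.3%. The mean over arrays was above 0 for 31 genes (70.5%), against 48.5% of all items, and for 23 genes, against 49.8% of all items, once young bone 3, the swapped array, was left out. All 3 arrays were above 0 for 10 members (22.7%), against 10.4% of all items, and below 0 for 3 members (6.82%), against 13.9%. With the swapped arrays turned, 10 of the 44 fitted effects lay above 0 (22.7%), against 51.3% of all items. As deposited 13 of 44 genes kept 1 sign on all 3 arrays, against 24.3% of all items. Turned, 14 of 44 did, against 32.7%, so more items kept 1 sign in young bone when turned. Across the 44 genes the 2 unswapped arrays correlated at r = 0.548 and the swapped array correlated with their mean at r = -0.267, as a description of genes that share the same arrays.

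The large and small subunit genes had similar medians in every group. Over the 3 arrays, the large subunit median minus the small subunit median averaged 0.01 ± 0.07 in old marrow, 0.00 ± 0.04 in young marrow and -0.00 ± 0.08 in young bone (SD, n = 3 each). On single arrays this difference ran from -0.065 to 0.09, with both signs in each group. The fitted medians in young marrow were 0.13 for the large and 0.12 for the small subunit. In young bone they were 0.078 and 0.06, and in old marrow -0.035 and -0.001. The old marrow mean was above 0 for 30.0% of large and 50.0% of small subunit genes. The differences between subunits were thus smaller than the spread between mouse pairs.

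**Figure D2:**
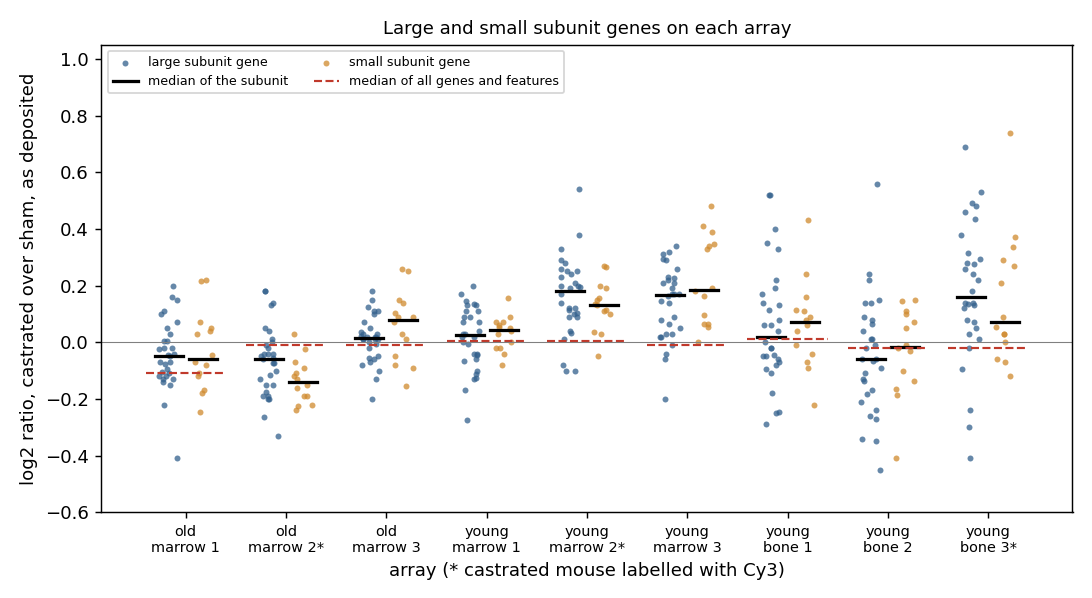
Log2 ratio of castrated over sham on each array (asterisk: swapped) for large subunit genes (blue) and small subunit genes (orange), with the median of each subunit as a black bar and the median of all 7170 items as a red dashed line. The subunit medians stay within 0.09 of each other on all 9 arrays. Both lie below the dashed line on old marrow 2. On young bone 2 the large subunit median lies below the line and the small subunit median just above it, and on the other arrays both lie above it.

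Among large subunit proteins outside the stalk, Rpl26, a protein near the exit of the peptide tunnel, was measured by 2 features. Rpl26 had -0.13, -0.10 and -0.005 on the old marrow arrays, 0.13, 0.24 and 0.31 on the young marrow arrays, and 0.14, 0.065 and 0.48 on the young bone arrays. All 6 young arrays were thus above 0 and above all 3 old ones. The share of all items with groups apart in this way was not counted, here or for the genes below. Most of those genes were named for small p-values or extreme effects. The fitted effect was 0.25 in young marrow (SE 0.10, adjusted p = 0.40) and 0.25 in young bone (SE 0.10, adjusted p = 0.46), but 0.02 and -0.14 when the values are read as Cy5 over Cy3. Old marrow minus young marrow came to -0.305 (SE 0.13, adjusted p = 0.34), or -0.08 read as Cy5 over Cy3.

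Rpl21, with 1 feature, had 0.11, 0.13 and 0.11 in old marrow, 0.07, 0.12 and 0.09 in young marrow, and -0.02, -0.01 and 0.49 in young bone. The 6 marrow arrays agreed within 0.06 of each other, and young bone 3 stood apart from its group. Its average effect was 0.15 (SE 0.06), with a p of 0.0251 and an adjusted p of 0.219, and it was -0.09 with the swapped arrays turned.

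Rpl39 and Rpl41, very small basic proteins of the large subunit, had their highest ratios in young bone. Rpl39 had -0.15, -0.055 and -0.10 in old marrow, -0.275, -0.08 and 0.165 in young marrow, and 0.52, 0.24 and 0.135 in young bone. Its young bone arrays were all above its old marrow arrays, and its young marrow arrays fell on both sides of 0. Rpl41, with 4 features, had -0.22, -0.07 and -0.06 in old marrow, -0.11, -0.10 and 0.26 in young marrow, and 0.52, 0.14 and 0.13 in young bone. For both genes young bone 1 was the highest of the 9 arrays. Young bone effects were 0.29 for Rpl39 (SE 0.11, adjusted p = 0.445) and 0.25 for Rpl41 (SE 0.11, adjusted p = 0.59). Turned, they were 0.20 and 0.16.

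Other large subunit genes took the low end in young bone. Rpl30, a small protein that in yeast also restrains the splicing of its own transcript, had -0.13, 0.0 and 0.03 in old marrow, 0.09, 0.29 and 0.08 in young marrow, and -0.25, -0.06 and -0.30 in young bone. Its young marrow and young bone arrays did not overlap, and young marrow minus young bone was 0.36 (SE 0.13, adjusted p = 0.946), or -0.04 read as Cy5 over Cy3. Rpl3, which reaches towards the peptidyl transferase centre, had 0.20, -0.04 and 0.02 in old marrow, 0.03, 0.33 and -0.01 in young marrow, and -0.29, -0.35 and 0.14 in young bone. The swapped young bone array of Rpl3 differed in sign from the other 2. Rpl35a had -0.41, -0.20 and -0.08 in old marrow, 0.07, 0.09 and 0.05 in young marrow, and -0.11, -0.27 and 0.01 in young bone. Its old marrow arrays all lay under its young marrow arrays, with an old marrow effect of -0.215 (SE 0.09, adjusted p = 0.261), or -0.07 read as Cy5 over Cy3.

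Rpl27 ran against most other members in young marrow. Its ratios were 0.16, 0.14 and 0.01 in old marrow, -0.13, -0.10 and -0.20 in young marrow, and 0.40, 0.56 and -0.24 in young bone. Its young marrow effect of -0.18 (SE 0.13, adjusted p = 0.67) was the lowest of the members as deposited. Turned, it was -0.09, and Rplp0 was the lowest at -0.16. Rpl23, which can also bind the ubiquitin ligase Mdm2, had 0.15, 0.18 and 0.02 in old marrow, 0.20, 0.38 and 0.19 in young marrow, and 0.08, 0.22 and -0.41 in young bone. Of its 9 arrays 8 were above 0, and the exception was the swapped young bone array. Rpl12, at the base of the stalk, had -0.11, 0.18 and -0.02 in old marrow, 0.03, 0.28 and 0.34 in young marrow, and 0.33, -0.13 and 0.18 in young bone. Rpl13 had 0.03, -0.02 and 0.11 in old marrow, 0.09, 0.25 and 0.14 in young marrow, and 0.22, -0.26 and 0.69 in young bone. The young bone SD of Rpl13 was 0.475, larger than its mean of 0.22.

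The stalk proteins help recruit translation factors to the ribosome. Rplp0, the core of the stalk, had -0.14, -0.19 and -0.05 in old marrow, 0.17, 0.54 and 0.02 in young marrow, and 0.13, -0.21 and 0.53 in young bone. Its old and young marrow arrays did not overlap, with old minus young marrow at -0.37 (SE 0.17, adjusted p = 0.34), or 0.12 read as Cy5 over Cy3. On the swapped arrays of the young groups it reached its 2 highest values, and its dye term, with a p of 0.0568 and an adjusted p of 0.742, was the second most marked among the members after that of Rps14. Rplp1, its acidic partner, had -0.12, -0.04 and -0.20 in old marrow, -0.06, 0.01 and 0.03 in young marrow, and 0.06, -0.06 and 0.12 in young bone. All 9 values of Rplp1 were within 0.20 of 0.

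**Figure D3:**
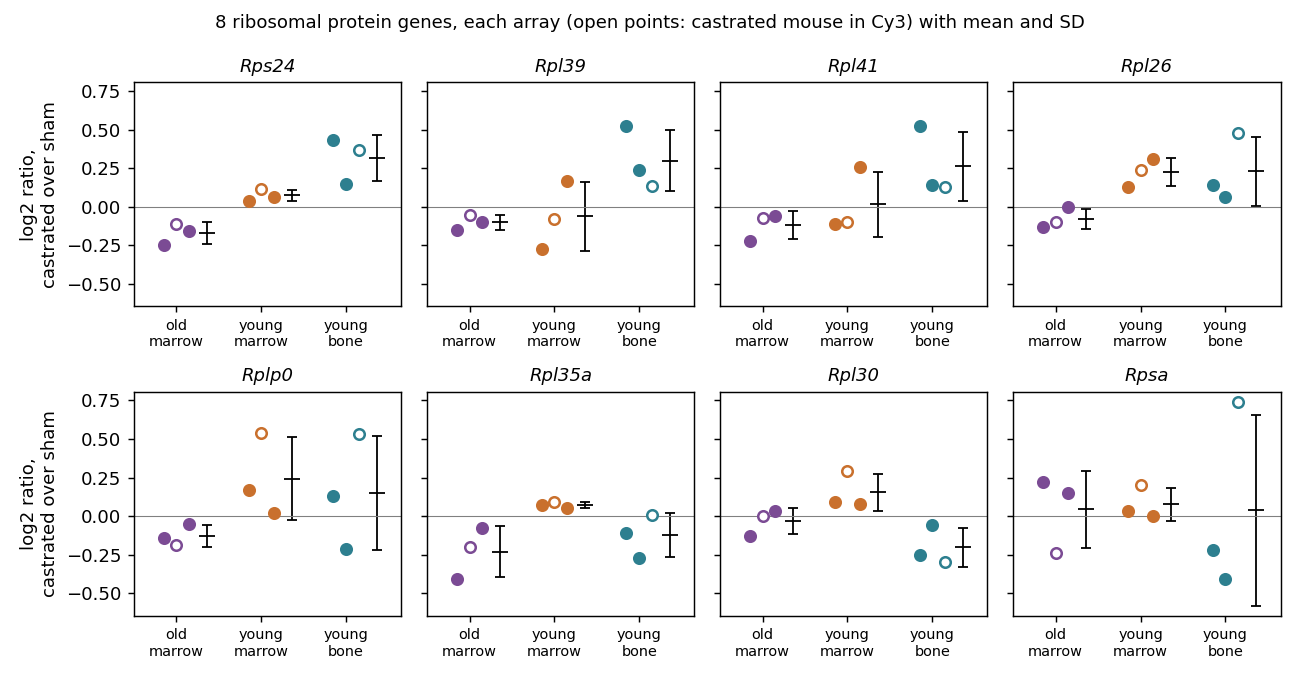
Log2 ratio of castrated over sham for 8 ribosomal protein genes, 1 point per array in old marrow, young marrow and young bone (open points: swapped arrays), with the mean and SD of the 3 arrays in black. As deposited, Rps24 and Rpl39 lie below 0 on all 3 old marrow arrays and above 0 on all 3 young bone arrays, and Rpsa ranges from -0.41 to 0.74 within young bone.

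Among small subunit proteins, Rps24 was measured by 2 features. It had -0.245, -0.11 and -0.155 in old marrow, 0.04, 0.115 and 0.065 in young marrow, and 0.43, 0.145 and 0.37 in young bone. As deposited the 3 groups did not overlap, and both features gave the same order of groups. The share of all items whose 3 groups did not overlap was not counted. The young bone effect was 0.33 (SE 0.09), with a p of 0.00343 that became 0.221 after adjustment. Old marrow minus young bone was -0.485 (SE 0.12), with a p of 0.00226 and an adjusted p of 0.679. With the swapped arrays turned round the groups overlapped, since young bone then held 0.43, 0.145 and -0.37. The young bone effect of Rps24 was then 0.04, old marrow minus young bone -0.165, and the average -0.04, against 0.09 as deposited.

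Rps4x, encoded on the X chromosome, had -0.045, -0.025 and 0.26 in old marrow, 0.155, 0.27 and 0.345 in young marrow, and 0.04, 0.10 and 0.055 in young bone. Its young marrow effect of 0.25 (SE 0.09) had the smallest p among the members in that group, 0.0217, with an adjusted p of 0.371. Turned, that effect was 0.04. Rps29 had -0.08, 0.03 and 0.07 in old marrow, 0.07, 0.265 and 0.165 in young marrow, and 0.115, -0.03 and 0.335 in young bone. Rps21 had -0.18, -0.19 and -0.08 in old marrow, -0.08, 0.11 and 0.41 in young marrow, and 0.08, -0.02 and -0.06 in young bone. The old marrow values of Rps21 lay at or under its lowest young marrow value. Rps14, whose loss in humans is tied to a myelodysplastic syndrome, had 0.03, -0.22 and 0.03 in old marrow, -0.02, -0.05 and 0.39 in young marrow, and 0.24, 0.15 and -0.12 in young bone. In each group its swapped array was the lowest.

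Rpsa, a small subunit protein also known as a laminin receptor, showed the widest range. It had 0.22, -0.24 and 0.15 in old marrow, 0.03, 0.20 and 0.00 in young marrow, and -0.22, -0.41 and 0.74 in young bone. The young bone mean of 0.04 therefore stood for an SD of 0.616. Read as Cy5 over Cy3, the young bone values were -0.22, -0.41 and -0.74, with an effect of -0.49 (SE 0.10, adjusted p = 0.67). The sign of Rpsa in young bone thus depended on the reading of the swapped array.

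**Figure D4:**
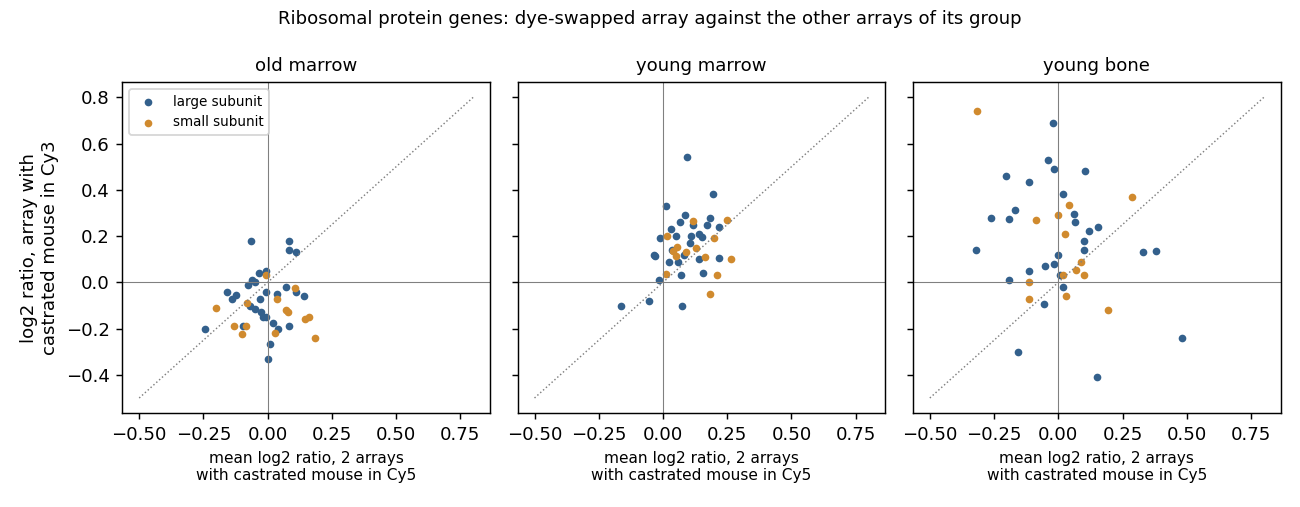
Each point is a ribosomal protein gene (blue: large subunit, orange: small subunit), with the mean log2 ratio of the 2 arrays with the castrated mouse in Cy5 on the horizontal axis and the ratio of the swapped array on the vertical axis; the dotted line marks equal values. Over the 44 genes r was 0.086 in old marrow, 0.297 in young marrow and -0.267 in young bone, where Rpsa is the highest point.

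Members with several features allowed a check within genes. Of the 44 genes, 16 had more than 1 feature, and the median absolute difference between features of 1 gene was 0.09 over 26 feature pairs, against 0.13 between different members over 946 pairs. Differences of about 0.1 between genes on 1 array are thus of the size seen between features of the same gene. A further 18 features were annotated to several genes including a ribosomal protein gene and were left out. Ribosomal protein genes have many processed pseudogenes, and whether the features also bound their transcripts was not tested.

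Over the comparisons 0.0% to 3.91% of all items were called, so 0 calls in a short list of pathway genes says little about that list. Of the genes for ribosome assembly, such as the nucleolar proteins Npm1 and Ncl, 18 of 41 were measured and 0 were called in either direction in any comparison, with a median average effect of 0.00. Of RNA polymerase I, which makes ribosomal RNA, 4 of 11 genes were measured, 0 were called and the median average effect was 0.01. In young marrow the RNA polymerase I median was 0.12, with 4 of 4 effects above 0, or 0.03 with 3 of 4 read as Cy5 over Cy3. Of all items 48.7% had a young marrow effect above 0, or 48.1% read as Cy5 over Cy3. For ribosome assembly the young marrow median was 0.02, with 9 of 18 effects above 0. Of genes that control ribosome production, among them Myc and the mTOR partners, 10 of 20 were measured and 0 were called. The smallest p-values there in the average belonged to Mlst8, a subunit of the mTOR complexes, at -0.27 (SE 0.07, adjusted p = 0.0895), and to Max, the partner of Myc, at -0.18 (SE 0.07, adjusted p = 0.238). As deposited, Mlst8 was below 0 on all 8 arrays with a value, and the share of all items with such signs was not counted. Read as Cy5 over Cy3, its values on swapped arrays turn above 0. Of 27 measured mitochondrial ribosomal protein genes 1 (3.7%) was called lower in the average, a share near the 3.91% of all items. It was Mrps10, at -0.30 (SE 0.07, adjusted p = 0.048), and the call was lost when the values were read as Cy5 over Cy3. The list medians of the mitochondrial genes were -0.20 in old marrow, 0.06 in young marrow and -0.09 in young bone. In young marrow 20 of the 27 effects were above 0, or 16 of 27 read as Cy5 over Cy3.

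The other mRNAs known to start with a terminal oligopyrimidine tract, mostly for elongation and initiation factors, also had values like those of the ribosomal protein genes in young marrow. Of 20 such genes 14 were measured and 0 were called in any comparison, where 0.0% to 3.91% of all items were. In young marrow 13 of 14 had an effect above 0, against 48.7% of all items. Their median there was 0.12, beside 0.12 for the ribosomal protein genes and -0.00 for all items. Eif3e, a subunit of an initiation factor, had 0.215, 0.41 and 0.455 on the young marrow arrays, at an effect of 0.36 (SE 0.09, adjusted p = 0.121). Eef1g, an elongation factor subunit, had a young marrow effect of 0.28 (SE 0.11, adjusted p = 0.43). Under the Cy5 over Cy3 reading, 4 of 14 young marrow effects of this list lay above 0, against 48.1% of all items, with a median of -0.02. The fitted median of the list was 0.06 in young bone and 0.02 in old marrow, where the median on each array was below 0, at -0.055, -0.045 and -0.01.

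Markers of some other cells also had ratios away from 0. The median of the 5 B lymphocyte markers was 0.93, 0.90 and 1.15 on the old marrow arrays, 0.87, 0.92 and 1.14 on the young marrow arrays, and 0.98, 0.72 and 0.85 on the young bone arrays. The ranges of the 3 groups overlapped. The 6 skeletal muscle markers had medians of 1.04, 0.155 and 0.31 in old marrow, -0.08, 0.04 and -0.09 in young marrow, and -1.36, -0.195 and -0.60 in young bone. The 5 bone matrix markers had 0.50, 0.27 and 0.81 in young marrow, and 0.14, 1.33 and 0.26 in young bone, against -0.33, 0.22 and 0.21 in old marrow. The 4 erythroid markers had both signs in each group, with -0.075, 0.03 and -0.155 in old marrow. They had -0.055, 0.155 and -0.33 in young marrow, and 0.13, -0.335 and 0.05 in young bone. Of the muscle, bone matrix and erythroid markers 0 were called in any comparison, where 0.0% to 3.91% of all items were. The part of these cells in the ribosomal protein ratios, those of Rps24, Rpl39 and Rpl41 in young bone among them, was not tested. With 3 arrays in a group, an order of arrays cannot show it.

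The groups were compared member by member through their signs. No member kept 1 sign on all 9 arrays, whereas 4.29% of all items did. Between old and young marrow 6 members had opposite signs on all arrays of each, or 13.6%, against 5.56% of items. Between old marrow and young bone there were 4, or 9.09%, against 1.81%, and between young marrow and young bone 3, or 6.82%, against 2.76%. Read as Cy5 over Cy3, the counts were 0 (0.453% of items), 3 (2.07%) and 0 (0.824%) in the same order. The median fitted difference over the members was -0.15 for old minus young marrow, beside -0.06 for all items, with 2 of the 44 differences above 0 (4.55%, against 41.1% of all items). Under the Cy5 over Cy3 reading, 28 of the 44 were above 0 (63.6%, against 47.9%), so the direction in the fit over all arrays rests on the reading. On the unswapped arrays, equal in both readings, the member median was -0.005 in old marrow and 0.088 in young marrow. There 19 of 44 means were above 0 in old marrow (against 40.6% of all items) and 38 in young marrow (against 45.7%). For old marrow minus young bone the median as deposited was -0.11, beside -0.03 for all items, and it was 0.085, beside -0.01, read as Cy5 over Cy3. For young marrow minus young bone it was 0.065, beside -0.00, as deposited and 0.07, beside -0.00, read as Cy5 over Cy3.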

How the data were processed

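Castrated over sham log ratios from 9 dual-channel arrays were used as deposited. The authors' values were read as log2 ratios; their log base, direction, background treatment and normalization are not given in the sources used here. No scaling was added. Features annotated to 1 gene were averaged per gene if they had values on 2 or more arrays of each group. The members and gene lists were chosen with earlier results of these data known. Genes named are the markers Rpl26, Rps24 and Rpl21, those with the smallest p-values or extreme effects per comparison, Rpsa and the stalk proteins.

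A linear model with 3 group terms and a dye term was fitted with limma 3.58.1 in R 4.3.3, with moderated variances and Benjamini-Hochberg adjustment over 7170 items at 0.05. It was tested on simulated data. Each replicate is a mouse pair per the labels, and nothing says whether the bone and marrow of young mice share animals. Deviations from group means of equally numbered arrays correlated at 0.608, 0.279 and 0.295 between old and young marrow. By the data alone this would count as pairing, but these are mice of different ages, so the arrays do not share animals. The values were -0.096, -0.368 and -0.064 between young marrow and young bone, and -0.043, -0.111 and 0.412 between old marrow and young bone. Unequally numbered arrays of different groups ran from -0.533 to 0.422. What the array numbers stand for was not tested. A fit of the marrow groups with the replicate as a block called 0 items, as did the fit without it. No intensities were used, and precision rests on the number of arrays. Alternatives are given at the end.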

Additional observations from a re-analysis of the deposited data

Results flagged for a closer look

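For 11 genes every array of 1 group lay on 1 side of 0 and every array of another group on the other side. Between old and young marrow these were 13.6% of the members, against 5.56% of all items. The shares were 9.09% against 1.81% for old marrow and young bone, and 6.82% against 2.76% for young marrow and young bone. The share of all items over the 3 pairs together was not counted. The difference between the groups was tested with limma. No gene had an adjusted p under 0.05, and the smallest was 0.338. Between old and young marrow the difference was -0.305 for Rpl26, -0.222 for Rpl35, -0.30 for Rpl35a, -0.37 for Rplp0 and -0.243 for Rps24, and 0.247 for Rpl27. Between old marrow and young bone it was -0.307 for Rpl26, -0.40 for Rpl39, -0.38 for Rpl41 and -0.485 for Rps24. Between young marrow and young bone it was 0.357 for Rpl30, 0.25 for Rpl34 and 0.187 for Rps6. Rpl34, Rpl35 and Rps6 are named here because of these signs. Since each contrast has 1 swapped array per group, the signs hold only for ratios read as castrated over sham.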

How the results depend on the processing

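In every alternative run 0 of the 44 ribosomal protein genes were called, and the lowest member p in the average ranged from an adjusted 0.0564 to 0.893 over them. Replicates of a group were 3, so a single array could decide the counts over all items. Leaving out 1 array at a time gave 74 to 463 items called in the average, 4 to 1150 in old marrow (1150 and, for old minus young marrow, 763 without old marrow 3), 0 to 108 in young marrow, 0 to 64 in young bone, 0 to 763 for old minus young marrow, 0 to 28 for old marrow minus young bone and 0 to 2 for young marrow minus young bone. It moved the old marrow member median to between -0.064 and 0.054, the members above 0 there to between 9 and 28, and those in young bone to between 19 and 34; the 19 belongs to the fit without young bone 3.

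Read as Cy5 over Cy3, 0 items were called in the average, in each group and for old marrow minus young bone, and 187 had a dye effect. Members above 0 then numbered 17 in the average, 16 in young marrow and 10 in young bone, and the member median was -0.012 in young marrow and -0.057 in young bone. Of 35 effects of named genes, 16 changed sign. In the average these were -0.07 for Rpl12, -0.126 for Rpl13, -0.094 for Rpl21, -0.061 for Rpl26, -0.153 for Rplp0, -0.039 for Rps24, -0.079 for Rps29 and -0.136 for Rpsa. In old marrow they were -0.021 for Rpl21 and -0.036 for Rpl23, in young marrow 0.07 for Rpl41 and -0.163 for Rplp0, and in young bone -0.304 for Rpl13 and 0.004 for Rpl30. For young marrow minus young bone Rpl30 had -0.037, and the dye effect of Rplp0 was 0.14.

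The unswapped arrays alone gave 70 items in the average, 5 in old marrow and 0 in young marrow, in young bone and for old marrow minus young bone. The large minus small subunit median of young marrow was then -0.047, Rpl13 had -0.02 in young bone, Rpl41 0.074 in young marrow, and Rplp0 -0.013 and Rpsa -0.038 in the average. Without the dye term 38 items were called in young bone and 0 for old marrow minus young bone, and Rpl41 had 0.016 in young marrow. Centring and scaling gave 8 items in old marrow, 95 in young marrow and 1 in young bone. Centring alone gave 0.001 for Rplp1 in the average. With the replicate number as a block over all groups, 45 items were called in young bone and 0 for old marrow minus young bone, and no member's call changed.

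With 1 array left out at a time, the sign of 7 named effects turned. Rpl13 in young bone ran from -0.009 (without young bone 3) to 0.455, Rpl23 in old marrow from -0.009 (without old marrow 2) to 0.165, and Rpl3 in old marrow from -0.01 (without old marrow 1) to 0.305. Rpl39 in young marrow ran from -0.178 to 0.042 (without young marrow 1), and Rpl41 there from -0.106 to 0.08 (without young marrow 1). In the average Rplp1 ran from -0.023 to 0.002 (without young marrow 2) and Rpsa from -0.098 (without young bone 3) to 0.272. The cause was not tested for any of these. The fits on marrow groups alone and the counts of members above 0 were chosen after seeing the data.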
